A study of Mus musculus with 10 samples.

Results

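The 37 genes described here are used as markers of T cells and natural killer (NK) cells. They were chosen by name, from a list of receptor, signalling, granule, transcription factor and chemokine genes, and all 37 were found among the 19414 genes measured in the liver. Livers came from 10 female HET3 mice, a heterogeneous stock descended from several inbred strains. The standard diet was fed to 5 of them and the Longevity diet to the other 5, in both groups for 5 months. The labels give 25 months as the age without saying whether feeding began or ended then, and name no other treatment, transgene or allele. The series title calls the Longevity diet methionine-supplemented. Each library was made from poly-A RNA of 1 liver, so a bulk value combines the number of T and NK cells with the RNA that each holds. It also takes in any RNA of these genes from other liver cells, and these parts cannot be told apart. Mice are named SD_ for the standard diet and LD_ for the Longevity diet, followed by the animal's number.

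T cells recognise peptide on MHC molecules through a T cell receptor whose chains sit in the membrane with the CD3 proteins, and CD4 or CD8 holds the MHC molecule as co-receptor. Once the receptor is engaged, the kinase LCK phosphorylates CD3, ZAP70 docks there, and LAT gathers the proteins that carry the signal onwards. NK cells lack this receptor and weigh signals from activating and inhibitory receptors instead. CD8 T cells and NK cells share a killing machinery of perforin and granzymes. The liver holds many resident NK, NKT and CD8 T cells along its sinusoids, where the receptor CXCR6 meets its ligand CXCL16.

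The regulatory sequence in front of these genes is shown for 4 members whose levels are described at length below. Cd3e and Lck were picked as genes with like levels over the mice, and Zap70 and Prf1 as the 2 with the smallest p between the diets, all after their values were seen. Each line gives the 250 bases before a transcription start (RefSeq, GRCm38.p6), read 5′ to 3′ along the gene. Capitals mark the ETS word GGAAGT and the RUNX word TGTGGT or their reverse complements ACTTCC and ACCACA, which stand for binding motifs of transcription factor families active in lymphocytes. The Cd3e window lies at chr9:45009612-45009861, minus strand, the upstream and downstream Lck windows at chr4:129573642-129573891, minus strand, and chr4:129558373-129558622, minus strand, the Zap70 window, 1 of 3 for that gene, at chr1:36764265-36764514, plus strand, and the Prf1 window at chr10:61297586-61297835, plus strand.
Cd3e: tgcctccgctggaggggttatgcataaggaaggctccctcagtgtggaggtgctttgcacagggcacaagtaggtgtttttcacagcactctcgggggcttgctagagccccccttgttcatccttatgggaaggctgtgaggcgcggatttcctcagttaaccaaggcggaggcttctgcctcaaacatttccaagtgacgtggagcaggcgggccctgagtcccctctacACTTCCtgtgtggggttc
Lck upstream: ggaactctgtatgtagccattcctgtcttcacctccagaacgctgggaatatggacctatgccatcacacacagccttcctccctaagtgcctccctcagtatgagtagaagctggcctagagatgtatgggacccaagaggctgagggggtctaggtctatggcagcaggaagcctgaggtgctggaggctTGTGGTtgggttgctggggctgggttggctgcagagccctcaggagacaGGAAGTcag
Lck downstream: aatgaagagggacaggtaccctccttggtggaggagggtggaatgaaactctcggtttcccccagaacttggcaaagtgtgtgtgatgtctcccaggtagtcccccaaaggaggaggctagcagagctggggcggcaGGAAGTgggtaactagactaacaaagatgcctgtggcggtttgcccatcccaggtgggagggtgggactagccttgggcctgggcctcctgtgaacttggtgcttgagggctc
Zap70: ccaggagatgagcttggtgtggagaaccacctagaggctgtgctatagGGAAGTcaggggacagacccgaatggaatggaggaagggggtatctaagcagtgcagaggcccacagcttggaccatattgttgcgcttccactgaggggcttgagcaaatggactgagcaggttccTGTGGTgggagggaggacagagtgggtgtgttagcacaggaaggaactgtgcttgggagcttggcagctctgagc
Prf1: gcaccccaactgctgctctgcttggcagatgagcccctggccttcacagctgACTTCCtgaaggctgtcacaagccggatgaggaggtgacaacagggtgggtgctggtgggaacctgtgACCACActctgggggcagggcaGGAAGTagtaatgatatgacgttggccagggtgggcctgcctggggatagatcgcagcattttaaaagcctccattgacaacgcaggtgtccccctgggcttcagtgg

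Promoter windows were found for 24 of the 37 genes, 29 windows in all, of which the 2 of Ncr1 nearly coincide. The ETS word occurred in 16 of the 29 windows (55.2%) and in 19.7% of the 32851 windows of the mouse genome that were searched. The RUNX word occurred in 13 of 29 (44.8%) and in 14.0% of all windows. A longer T-box word, AGGTGTGA or TCACACCT, was found in 1 window (3.45%), that of Nkg7, and in 1.12% of all. At least 1 of the 3 words was present for 20 of the 24 genes. The other Zap70 windows held none of them, and neither did those of Cd3g, Cd8a, Lat and Eomes. A word of this kind is a match of letters and was not tested for binding. The ETS word stood before Cd3e, Lck and Prf1 and, for Zap70, only in the window printed, and was not in the window of Cd3g.

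The values are read counts scaled to a common library total (CPM), that is per 1000000 of the reads on the genes listed. The step between low values put the depth of the libraries at 24.7 to 45.7 M reads (M, 1000000). Standard diet libraries averaged 42.5 ± 4.35 M reads and Longevity diet libraries 30.0 ± 6.47 M (SD, n = 5 each). The tissue label held, with the hepatocyte gene Alb at 62598 to 160835 CPM, and Cd3e was detected in all 10 livers. A floor of 3 reads then corresponds to 0.0657 to 0.121 CPM, for counting error only. LD_405 stood apart in transcript length. Genes with a longest transcript of at least 5095 bases had a median deviation of -0.92 log2 units from the mean of the 10 mice there, against -0.15 to 0.49 in the other libraries. Transcripts of at most 1727 bases deviated by 0.39 in LD_405. Differences between the diets were tested with limma on log2(CPM + 0.1) for 15928 genes, those that averaged 0.25 CPM or more, with Benjamini-Hochberg adjustment over all of them and a threshold of 0.05. At that threshold 265 genes (1.66%) changed, of which 93 rose and 172 fell on the Longevity diet, and scaling by median-of-ratios or by quantiles gave 147 and 131, or 142 and 143. These 2 scalings moved the median over all genes by 0.11 and 0.13.

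None of the T and NK cell genes passed that threshold in either direction (0 of the 35 tested, against 1.66% of all genes, 0.584% higher and 1.08% lower). At thresholds of 0.1 and 0.2 the members past them were also 0 of 35, where 3.47% and 9.66% of all genes passed. Klrb1c and Klrd1 lay under the filter and were not tested. An unadjusted p under 0.05 was reached by 2 of the 35, Zap70 lower and Prf1 higher on the Longevity diet, where 16.6% of all genes reached it. With voom weights 0 of 35 passed, against 1.02% of all genes, and 2 had an unadjusted p under 0.05, against 15.9%. The 2 diets overlapped in every one of the 37 genes, whereas the values did not overlap for 4.95% of all genes tested. The log2 difference lay below 0 for 28 of the 35 (80.0%), and for 61.0% of all genes, with medians of -0.39 and -0.13. With median-of-ratios scaling 27 lay below 0 (median -0.32, and -0.02 over all genes). With quantile scaling 24 did (median -0.10, and 0.002 over all genes). With weights per library 32 did (median -0.77, and -0.06 over all genes). In that limma fit 1 member passed the threshold, Prf1 (adjusted p = 0.0451), where 4.83% of all genes passed. The members were measured in the same livers and, as genes of overlapping cell types, are not independent of each other. Without LD_405 the median was -0.54, and 0 passed.

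What stood out in these genes was the spread between mice of the same diet. The residual standard deviation within diets had a median of 1.26 log2 units over the 35 genes, against 0.51 over all genes tested, although the members are also scarcer, with a median level of 1.37 CPM against 9.05 CPM. The 95% confidence interval of a member reached a median of 1.48 log2 units, or 2.79-fold, to either side of its estimate. LD_515 had the lowest value, alone or tied, in 22 of the 37 genes, LD_406 and SD_403 in 7 each and SD_502 in 5. SD_500 was highest in 12, SD_501 in 9 and LD_442 in 8. The median member stood at 2.22 CPM in SD_501 and 2.10 CPM in SD_500, at 1.36, 1.5 and 1.37 CPM in LD_405, LD_513 and LD_442, at 0.526 to 0.744 CPM in SD_502, SD_646 and SD_403, and at 0.243 and 0.192 CPM in LD_406 and LD_515. High and low animals thus occurred on both diets. LD_406 and LD_515 had depths of 24.7 and 26.0 M reads, and LD_442, at 25.5 M, was among the high animals. The part of depth in these values was not tested. Nor was that of differences in genotype between mice of this heterogeneous stock. Of the 370 values 48 lay under the floor of 3 reads, 16 on the standard diet and 32 on the Longevity diet, where LD_406 held 12 and LD_515 held 16. When LD_406 and LD_515 were left out, the median log2 difference was 0.44, and 31 of 37 genes then lay higher on the Longevity diet, where 40.0% of all genes did, with 0 past the threshold. These 2 mice were left out because they were known to be lowest for such genes, so their removal had to raise the Longevity diet side, and the comparison tests nothing.

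**Figure D1:**
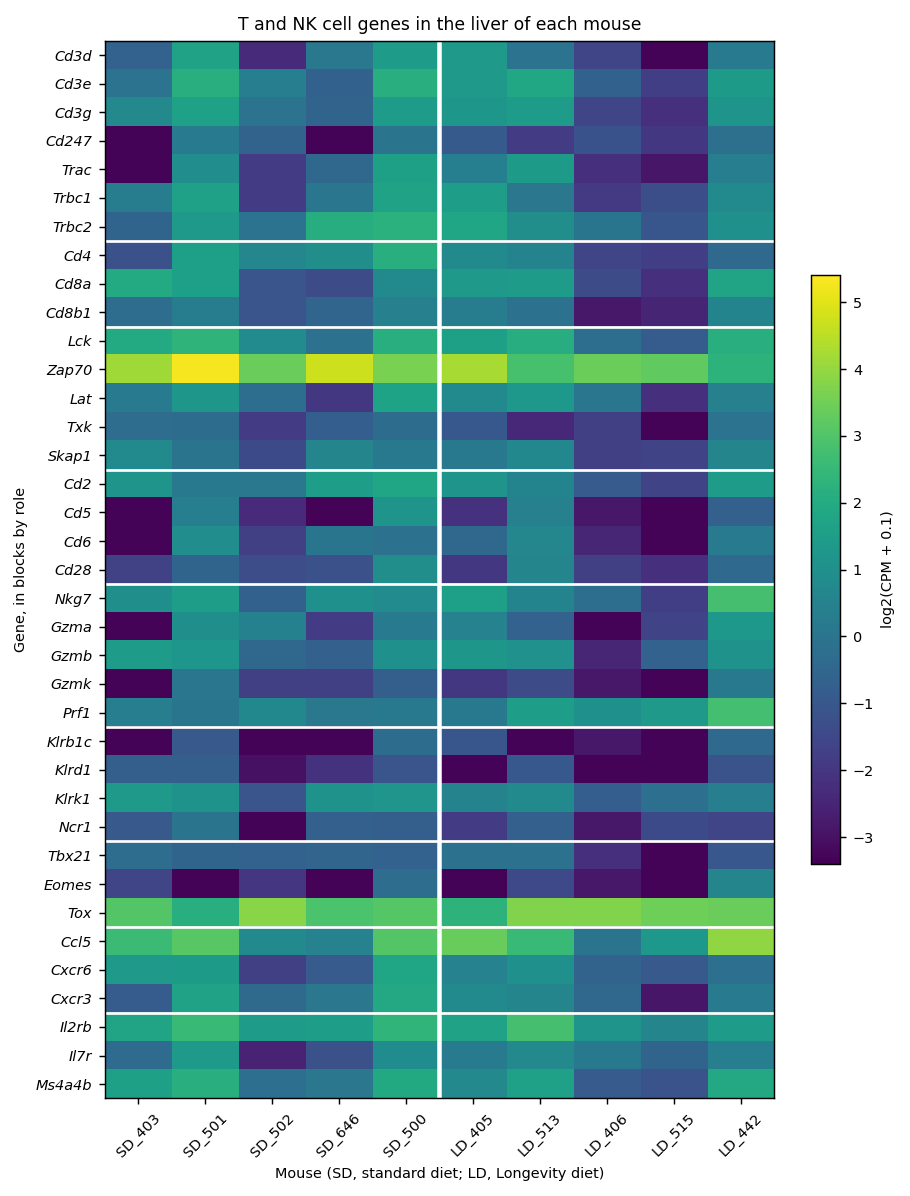
Level of each of the 37 genes (rows, in blocks by role) in each mouse (columns), coloured by log2(CPM + 0.1), with a vertical line between the diets. LD_406 and LD_515 are dark in most rows, SD_501 and SD_500 are bright, and the rows of Zap70 and Tox are bright throughout.

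The genes of the T cell receptor itself came first in this order. Values are given from here on in the order SD_403, SD_501, SD_502, SD_646 and SD_500, then LD_405, LD_513, LD_406, LD_515 and LD_442. Cd3e (chr9:44910038-44920925 on mm39, minus strand) encodes the CD3 epsilon chain, which pairs with both CD3 delta and CD3 gamma. It measured 0.876, 4.22, 1.18, 0.532 and 4.38 CPM on the standard diet and 2.38, 3.53, 0.526, 0.192 and 2.51 CPM on the Longevity diet (log2 difference -0.36, SE 0.74, adjusted p = 0.843). SD_501, SD_500 and LD_513 were high and LD_515 lowest, and the 2 diets overlapped over most of their range. Cd3g and Cd3d lie beside Cd3e on the same chromosome, at chr9:44880870-44891729 and chr9:44893084-44898637. Cd3g measured 1.55, 2.97, 0.876, 0.576 and 2.63 CPM on the standard diet and 2.28, 2.58, 0.243, 0.115 and 2.12 CPM on the Longevity diet (log2 difference -0.63, SE 0.73, adjusted p = 0.707). Cd3d measured 0.547, 3.08, 0.10, 0.997 and 2.59 CPM on the standard diet and 2.41, 0.868, 0.243, 0 and 1.06 CPM on the Longevity diet (log2 difference -0.73, SE 0.89, adjusted p = 0.720), so that SD_502 was as low as the low animals of the other diet. All 3 genes were lowest in LD_515 and among the higher values in SD_501, SD_500 and LD_405.

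Trac encodes the constant region of the receptor's alpha chain. It measured 0, 1.78, 0.175, 0.642 and 2.96 CPM on the standard diet and 1.20, 2.55, 0.121, 0.0385 and 1.18 CPM on the Longevity diet (log2 difference 0.04, SE 0.99, adjusted p = 0.989). Its 0 in SD_403, at the greatest depth of the series, allows up to 0.0657 CPM, while Cd3e and Cd3g were detected in that mouse. Trbc1 and Trbc2 encode the alternative constant regions of the beta chain and lie in tandem on chromosome 6, at chr6:41515152-41516815 and chr6:41523664-41525286. They are nearly identical, so that reads can be shared between them. Trbc1 ranged over 0.175 to 3.10 CPM on the standard diet and 0.168 to 2.82 CPM on the Longevity diet. Trbc2 ranged over 0.569 to 4.55 CPM on the standard diet and 0.385 to 3.40 CPM on the Longevity diet. Trbc1 had a log2 difference of -0.52 (adjusted p = 0.769) and Trbc2 one of -0.45 (adjusted p = 0.759). SD_646 was among the high mice for Trbc2 (4.14 CPM) and lay lower for Cd3e (0.532 CPM). Cd247, whose product is the signalling zeta chain, was at 0 in SD_403, at 3.84e-06 CPM in SD_646, which is far below the worth of 1 read, and otherwise at 0.154 to 1.07 CPM, with a log2 difference of 0.19 (adjusted p = 0.930). It overlaps Pou2f1 on the other strand, and whether reads were counted by strand is not given in the sources used here.

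Among the co-receptor genes, Cd4 had the lowest p. Cd4 marks helper and regulatory T cells. It measured 0.328, 2.86, 1.5, 1.84 and 4.21 CPM on the standard diet and 1.66, 1.39, 0.243, 0.192 and 0.668 CPM on the Longevity diet (log2 difference -1.28, SE 0.66, adjusted p = 0.358, 95% CI -2.70 to 0.15). SD_500, SD_501 and SD_646 lay above every Longevity diet mouse, while SD_403 at 0.328 CPM lay among the low Longevity diet mice. Without SD_403 the log2 difference was -1.79 (adjusted p = 0.216). Cd8a, which marks cytotoxic T cells, measured 3.85, 2.83, 0.375, 0.288 and 1.64 CPM on the standard diet and 2.41, 2.58, 0.283, 0.115 and 3.26 CPM on the Longevity diet (log2 difference -0.20, SE 0.86, adjusted p = 0.932). SD_403, low for Cd4, was the highest of all 10 mice for Cd8a. Its neighbour Cd8b1, which encodes the beta chain of CD8, ranged over 0.375 to 1.25 CPM on the standard diet and 0.0404 to 1.37 CPM on the Longevity diet, with a log2 difference of -0.70 (adjusted p = 0.652). Cd8a and Cd8b1 lie next to each other at chr6:71350411-71356157 and chr6:71299772-71314478.

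The ratio of Cd8a to Cd4 sets 2 genes of the same library against each other. On log2(CPM + 0.1) it averaged -0.44 ± 2.21 log2 units on the standard diet and 0.64 ± 0.96 on the Longevity diet (SD, n = 5 each, exact permutation p = 0.349, adjusted p = 0.582 over the 5 ratios tested). SD_403 had the highest ratio, 3.21, and SD_646 the lowest, -2.32. The lowest p that 5 against 5 mice allow in this 2-sided exact test is 0.00794. The other ratios also lay within the spread between mice. NK against T cell RNA, as Ncr1 to Cd3e, differed by -0.16 (exact permutation p = 0.881), and Gzmk to Cd3e by -0.01 (exact permutation p = 0.976). Cd3e and Ncr1 relative to Ptprc, the gene of the leukocyte antigen CD45, differed by 0.99 (exact permutation p = 0.238) and 0.83 (exact permutation p = 0.214). All 5 adjusted values lay between 0.582 and 0.976. The highest ratio of Cd3e to Ptprc, -0.37, was that of LD_405, where Ptprc stood at 3.10 CPM and Cd3e at 2.38 CPM, and without that mouse the difference was 0.52.

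Of the genes that carry the signal inside the cell, Lck varied with Cd3e over the 10 mice, and Zap70 showed no such relation past the threshold. Lck, the kinase that starts signalling, measured 3.87, 4.92, 1.70, 0.842 and 4.38 CPM on the standard diet and 2.97, 4.11, 0.768, 0.462 and 4.24 CPM on the Longevity diet (log2 difference -0.49, SE 0.63, adjusted p = 0.735). LD_406, LD_515 and SD_646 were low, as for Cd3e. Zap70 (chr1:36800879-36821899, plus strand), the kinase that docks on phosphorylated CD3, measured 17.5, 38.5, 10.4, 26.6 and 12.4 CPM on the standard diet and 18.8, 6.97, 10.8, 9.46 and 4.83 CPM on the Longevity diet (log2 difference -1.02, SE 0.39, adjusted p = 0.207, 95% CI -1.86 to -0.18). Its mean over the 10 mice, 15.6 CPM, was the highest of the 37 genes before any account of length. SD_646, one of the mice with little Cd3e, had the second highest level. LD_442, with 2.51 CPM of Cd3e, had the lowest Zap70. Both diets overlapped between 10.4 and 18.8 CPM. Its log2 difference kept its sign under the 23 alternatives run (-1.28 to -0.76), and the adjusted p never passed 0.05 (0.0804 to 0.518). Relative to transcript length, Zap70 stood at 6.96 CPM per kb and Lck at 1.29 CPM per kb (longest transcript in GENCODE M21).

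Lat, the adaptor downstream of ZAP70, ranged over 0.155 to 3.18 CPM on the standard diet and 0.115 to 2.34 CPM on the Longevity diet, with a log2 difference of -0.12 (adjusted p = 0.952). Skap1, an adaptor that links the receptor to integrin adhesion, ranged over 0.275 to 1.64 CPM on the standard diet and 0.202 to 1.53 CPM on the Longevity diet (log2 difference -0.39, adjusted p = 0.785). Txk, a Tec family kinase of T and NK cells, measured 0.744, 0.722, 0.175, 0.487 and 0.723 CPM on the standard diet and 0.410, 0.0868, 0.202, 0 and 0.864 CPM on the Longevity diet (log2 difference -1.01, SE 0.64, adjusted p = 0.455). LD_442 held the highest Txk value although the other Longevity diet mice were at or under 0.410 CPM.

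Surface receptors that adjust T cell activation were again lowest, or tied at 0, in LD_515. Cd2, an adhesion receptor of T and NK cells, measured 2.12, 1.03, 1.00, 2.70 and 3.44 CPM on the standard diet and 2.13, 1.39, 0.445, 0.231 and 2.63 CPM on the Longevity diet (log2 difference -0.81, SE 0.59, adjusted p = 0.522). Cd5, an inhibitory receptor, measured 0, 1.19, 0.10, 0 and 2.10 CPM on the standard diet and 0.128, 1.24, 0.0404, 0 and 0.511 CPM on the Longevity diet (log2 difference -0.22, SE 0.99, adjusted p = 0.934). Its values at 0 in SD_403, SD_646 and LD_515 sit on both diets. Cd6, a close relative of Cd5 that lies near it on chromosome 19, was at 0 in SD_403 and LD_515 and reached 1.78 CPM in SD_501, with a log2 difference of -0.22 (adjusted p = 0.930). Cd28, the main co-stimulatory receptor, ranged over 0.219 to 1.82 CPM on the standard diet and 0.115 to 1.42 CPM on the Longevity diet (log2 difference -0.38, adjusted p = 0.813), with SD_500 and LD_513 far above the rest at 1.82 and 1.42 CPM.

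The genes of the killing machinery differed in which mice were high. Prf1 (chr10:61133612-61140459, plus strand), which encodes perforin, the protein that opens pores in target cells, measured 1.18, 0.916, 1.53, 0.997 and 1.01 CPM on the standard diet and 1.02, 2.81, 1.90, 2.42 and 6.68 CPM on the Longevity diet (log2 difference 1.09, SE 0.43, adjusted p = 0.222, 95% CI 0.16 to 2.01). LD_442 was highest at 6.68 CPM, and LD_513, LD_515 and LD_406 also lay above all standard diet mice, with LD_405 inside their range. LD_515 and LD_406 were thus high for Prf1 while lowest or near lowest for most other members. Its log2 difference ran from 0.74 to 1.45 over the 23 alternatives, and it passed the threshold in 1 of them, with weights per library (adjusted p = 0.0451), where 4.83% of all genes passed.

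The granzymes are proteases that enter the target cell through the action of perforin. Gzmb measured 2.65, 2.22, 0.651, 0.509 and 1.91 CPM on the standard diet and 2.30, 1.97, 0.0809, 0.539 and 2.04 CPM on the Longevity diet (log2 difference -0.45, SE 0.71, adjusted p = 0.791). Gzma measured 0, 1.86, 1.28, 0.177 and 1.1 CPM on the standard diet and 1.31, 0.550, 0, 0.231 and 2.36 CPM on the Longevity diet (log2 difference -0.05, SE 0.94, adjusted p = 0.986). SD_403 thus had the highest Gzmb and no Gzma read, and LD_406 was lowest for Gzmb and also at 0 for Gzma. Gzmk, which lies beside Gzma on chromosome 13 (the 2 genes span chr13:113230359-113237515 and chr13:113308142-113362442), is a granzyme of memory CD8 T cells that accumulate with age. It ranged over 0 to 0.944 CPM on the standard diet and 0 to 1.02 CPM on the Longevity diet, with a log2 difference of -0.37 (adjusted p = 0.848). Gzmk overlaps Esm1, an endothelial gene on the other strand, at means of 3.05 and 0.147 CPM on the standard and Longevity diet, and reads of the 2 may not be separated. Nkg7, a granule membrane protein, measured 1.88, 2.72, 0.526, 1.90 and 1.71 CPM on the standard diet and 2.84, 1.39, 0.768, 0.192 and 6.95 CPM on the Longevity diet (log2 difference -0.14, SE 0.71, adjusted p = 0.943). LD_442 was highest for Nkg7 and Gzma as it was for Prf1.

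Several NK cell receptor genes lay close to the floor. Ncr1, which encodes the activating receptor NKp46 and marks NK cells and related innate lymphocytes, measured 0.416, 0.889, 0, 0.509 and 0.504 CPM on the standard diet and 0.179, 0.521, 0.0404, 0.269 and 0.236 CPM on the Longevity diet (log2 difference -0.53, SE 0.67, adjusted p = 0.732). It was absent from the reads of SD_502, where 0 reads allow up to 0.0751 CPM. Klrb1c, the gene of NK1.1, was at 0 in 5 of the 10 mice and reached 0.723 CPM in SD_500. Klrd1, whose product CD94 pairs with NKG2 receptors, was at 0 in LD_405, LD_406 and LD_515 and at 0.0250 to 0.503 CPM in the others. Neither had a mean of 0.25 CPM. Tested without a filter, their log2 differences were 0.06 (adjusted p = 0.980) for Klrb1c and -0.89 (adjusted p = 0.568) for Klrd1. Klrk1, which encodes the activating receptor NKG2D of NK and CD8 T cells, was detected in all 10 mice. It measured 2.47, 2.03, 0.375, 2.06 and 2.17 CPM on the standard diet and 1.36, 1.65, 0.485, 0.769 and 1.18 CPM on the Longevity diet (log2 difference -0.59, SE 0.50, adjusted p = 0.593), with SD_502 far below the other standard diet mice.

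Of the transcription factors, Tbx21 and Eomes direct cytotoxic and NK cell programmes, and Tox acts in T cell development and exhaustion. Tbx21 measured 0.744, 0.583, 0.551, 0.598 and 0.548 CPM on the standard diet and 0.819, 0.839, 0.121, 0 and 0.393 CPM on the Longevity diet (log2 difference -0.83, SE 0.62, adjusted p = 0.528). The standard diet mice were close together, at 0.548 to 0.744 CPM, and the Longevity diet mice lay on both sides of them. Eomes was at 0 in 4 mice, 2 on each diet, and highest in LD_442 at 1.41 CPM, with a log2 difference of 0.02 (adjusted p = 0.996). Tox (chr4:6686353-6991557, minus strand) measured 8.12, 4.25, 14.2, 7.38 and 8.35 CPM on the standard diet and 4.84, 13.3, 13.1, 10.8 and 10.5 CPM on the Longevity diet (log2 difference 0.33, SE 0.34, adjusted p = 0.667). SD_502, LD_513 and LD_406 were highest for Tox, and SD_501, highest for Cd3d and Cd3g, was lowest. LD_405, the library with low values for long transcripts, was next lowest. Together Zap70 and Tox made up 16.6% to 62.3% of the summed CPM of the 37 genes, the larger shares being those of LD_515 (62.3%) and LD_406 (61.1%), so that a plain sum over the list is weighted towards these 2 genes.

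**Figure D2:**
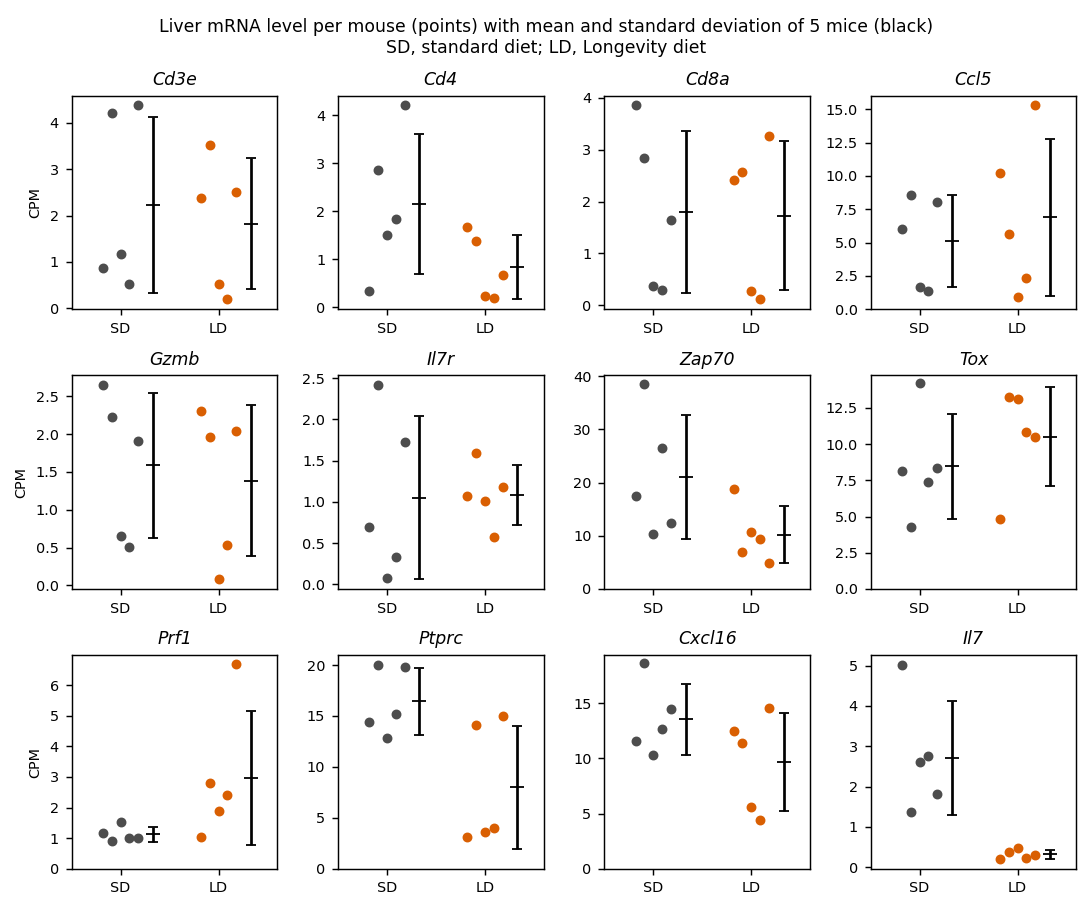
CPM of 9 T and NK cell genes and of Ptprc, Cxcl16 and Il7 in each mouse (points, grey for the standard diet and orange for the Longevity diet), with mean ± standard deviation of 5 mice in black. Points of the 2 diets overlap in every panel except that of Il7, and 4 of 5 Longevity diet mice lie above all standard diet mice for Prf1.

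The chemokine Ccl5, made in large amounts by memory CD8 T and NK cells, had the highest level for its length, 8.99 CPM per kb. It measured 6.02, 8.58, 1.63, 1.33 and 8.06 CPM on the standard diet and 10.2, 5.67, 0.890, 2.35 and 15.3 CPM on the Longevity diet (log2 difference 0.21, SE 0.75, adjusted p = 0.915). LD_442 and LD_405 were highest and LD_406 lowest, so that one diet held both ends of the range. Ccr3, a Ccl5 receptor best known from eosinophils, fell on the Longevity diet, from 3.37, 0.528, 2.18, 0.155 and 1.01 CPM to 0 in 4 mice and 0.115 CPM in LD_515 (log2 difference -3.20, SE 0.69, adjusted p = 0.0351). That call was lost in 13 of 22 alternatives (adjusted p up to 0.242), and with values at 0 the size of the fitted difference depends on the 0.1 CPM added before the logarithm.

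Cxcr6, the receptor that keeps T and NKT cells in the sinusoids, measured 2.47, 2.53, 0.20, 0.443 and 3.31 CPM on the standard diet and 1.33, 1.94, 0.566, 0.423 and 0.786 CPM on the Longevity diet (log2 difference -0.41, SE 0.68, adjusted p = 0.800). Its gene overlaps Fyco1 on the other strand, at means of 35.8 and 26.2 CPM. Cxcl16, the ligand of Cxcr6, measured 11.6, 18.6, 10.4, 12.7 and 14.5 CPM on the standard diet and 12.4, 11.4, 5.6, 4.46 and 14.6 CPM on the Longevity diet (log2 difference -0.59, SE 0.32, adjusted p = 0.385). LD_406 and LD_515 were lowest for the ligand and low for the receptor. Cxcr3, a receptor of effector T cells, measured 0.460, 3.11, 0.676, 0.952 and 3.68 CPM on the standard diet and 1.66, 1.42, 0.647, 0.0385 and 1.06 CPM on the Longevity diet (log2 difference -0.82, SE 0.73, adjusted p = 0.605). Of its interferon-induced ligands, Cxcl9 ranged from 4.00 to 66.7 CPM (log2 difference -0.91, adjusted p = 0.637) and Cxcl10 from 0.282 to 16 CPM (log2 difference -1.09, adjusted p = 0.556). SD_500 and LD_513 were the 2 highest mice for Cxcl9 and Cxcl10, and SD_500 and SD_501 the 2 highest for Cxcr3. Cxcl11, named after its values were seen, had a narrower range, 0.930 to 6.38 CPM, with SD_500 and SD_502 highest (log2 difference -1.02, SE 0.37, adjusted p = 0.183).

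Il2rb encodes the chain shared by the receptors of interleukin 2 and interleukin 15. It measured 3.24, 5.75, 2.63, 2.77 and 5.04 CPM on the standard diet and 3.10, 6.89, 2.14, 1.42 and 2.63 CPM on the Longevity diet (log2 difference -0.38, SE 0.40, adjusted p = 0.669). Il15, which keeps NK and memory CD8 T cells alive, ranged over 1.16 to 3.55 CPM on the standard diet and 0.577 to 2.23 CPM on the Longevity diet (log2 difference -0.52, adjusted p = 0.569). Ms4a4b, a membrane protein of T cells, measured 2.91, 4.25, 0.776, 0.952 and 3.75 CPM on the standard diet and 1.56, 3.01, 0.445, 0.346 and 3.69 CPM on the Longevity diet (log2 difference -0.66, SE 0.66, adjusted p = 0.660). It has close relatives in the Ms4a cluster with which reads may be shared. Il7r, the interleukin 7 receptor of naive and memory T cells, measured 0.701, 2.42, 0.0751, 0.332 and 1.73 CPM on the standard diet and 1.08, 1.59, 1.01, 0.577 and 1.18 CPM on the Longevity diet (log2 difference 0.56, SE 0.64, adjusted p = 0.704). The 2 diets overlapped for the receptor, and the narrower range was that of the Longevity diet.

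Its ligand did differ between the diets. Il7, the cytokine on which T cells depend for survival, fell on the Longevity diet, from 2.71 ± 1.41 to 0.322 ± 0.114 CPM (SD, n = 5 each). It measured 5.01, 1.36, 2.60, 2.77 and 1.82 CPM on the standard diet and 0.205, 0.376, 0.485, 0.231 and 0.314 CPM on the Longevity diet. All 5 Longevity diet mice lay at or under 0.485 CPM and all 5 standard diet mice at or above 1.36 CPM (log2 difference -2.64, SE 0.42, adjusted p = 0.00840, 95% CI -3.55 to -1.74). The call held in 21 of 23 alternatives, and was lost with voom weights (adjusted p = 0.0671) and without LD_406 and LD_515 (adjusted p = 0.0768). The log2 difference ran from -2.98 to -1.42. Of 27 measured ligands, partners and receptors of the member proteins, 25 were tested, 0 rose and 2 fell, Il7 and Ccr3, where 0.584% of all genes rose and 1.08% fell. Their median log2 difference was -0.59. Raet1e, which encodes a stress ligand of NKG2D, measured 25.3, 7.38, 7.59, 7.03 and 23.6 CPM on the standard diet and 6.69, 5.90, 3.92, 3.52 and 6.43 CPM on the Longevity diet (log2 difference -1.20, SE 0.39, adjusted p = 0.145), without overlap between the diets.

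**Figure D3:**
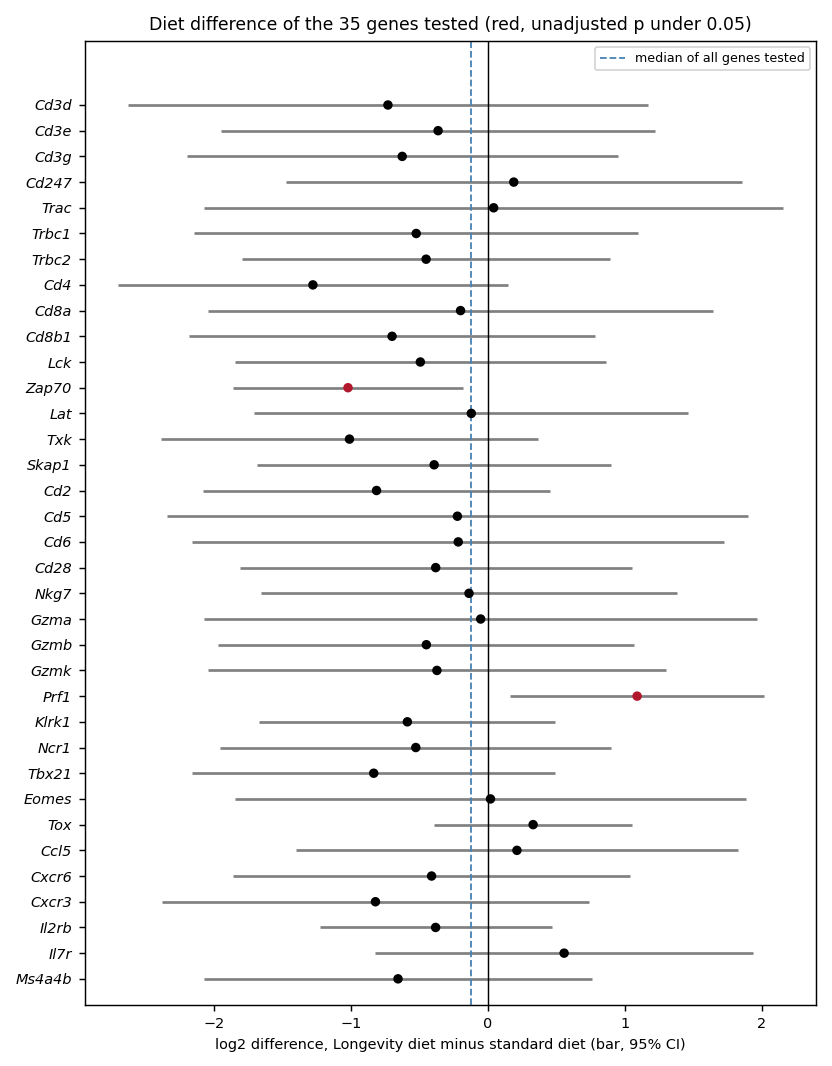
Log2 difference (Longevity diet minus standard diet) of the 35 genes tested, with 95% confidence intervals from limma; red points have an unadjusted p under 0.05 and the dashed line is the median of all genes tested, -0.13. The intervals of 33 genes include 0, and the 2 that do not are those of Zap70 and Prf1.

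How closely members followed each other over the 10 mice was described for 8 genes against Cd3e, chosen after their values were seen, on log2(CPM + 0.1). Cd3g followed it most closely (Pearson r = 0.94, permutation p = 5e-05, Spearman rho = 0.96, permutation p = 3e-05), followed by Lck (r = 0.91, permutation p = 0.00029, rho = 0.94, permutation p = 0.0001). Adjusted over the 8 relations these r values had p of 0.0004 and 0.00116, which does not allow for the choice of genes after their values were seen. Without LD_515 and LD_406, the 2 mice farthest from the median of Cd3e, r was 0.92 and 0.80. For Cd8a (r = 0.79, permutation p = 0.0118, adjusted p = 0.0314, rho = 0.59, permutation p = 0.0805) and Cd4 (r = 0.74, permutation p = 0.0169, adjusted p = 0.0339, rho = 0.72, permutation p = 0.0237) the relation rested in part on those mice, with r of 0.57 and 0.48 without them. The adjusted permutation p of rho was 0.14 for Cd8a and 0.0632 for Cd4, neither under 0.05. Zap70 (r = 0.03, permutation p = 0.933, rho = 0.08, permutation p = 0.840), Prf1 (r = -0.05, permutation p = 0.891, rho = -0.24, permutation p = 0.512) and Tox (r = -0.35, permutation p = 0.314, rho = -0.24, permutation p = 0.514) gave no relation past the threshold. Ptprc gave r = 0.52 (permutation p = 0.122, rho = 0.58, permutation p = 0.0878) and 0.07 without LD_515 and LD_406. With 5 mice per diet no correlation was computed within a diet. All values come from the same 10 libraries and share their depth.

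**Figure D4:**
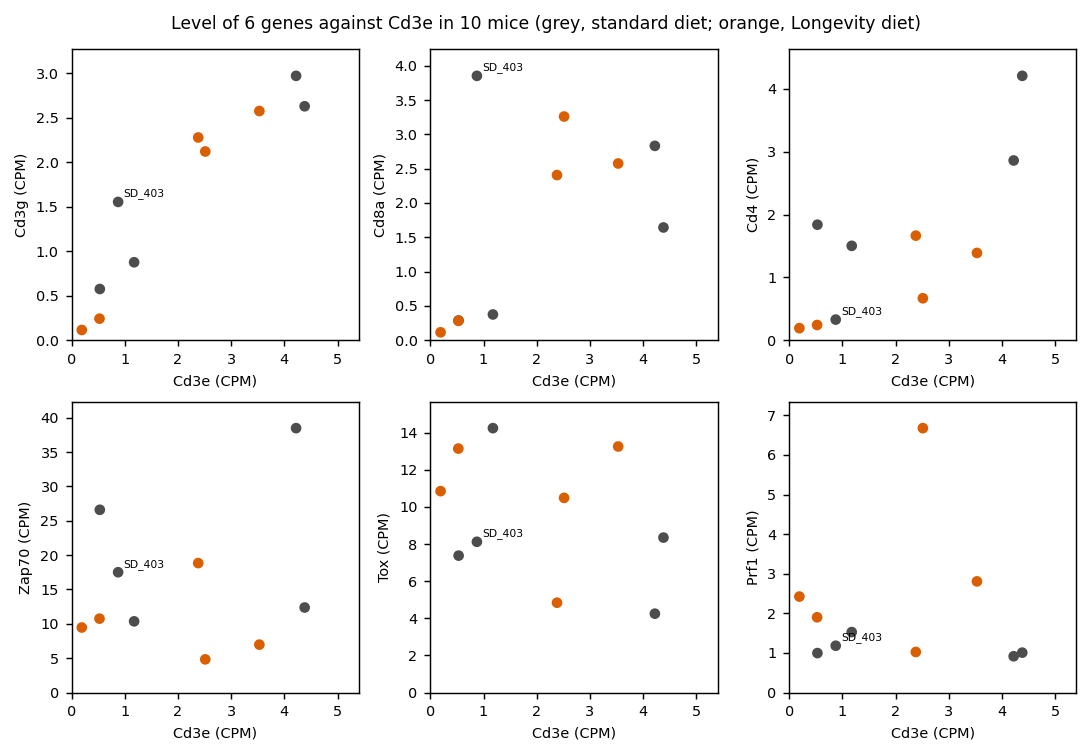
CPM of Cd3g, Cd8a, Cd4, Zap70, Tox and Prf1 (vertical axes) against Cd3e (horizontal axes) in 10 mice, grey for the standard diet and orange for the Longevity diet, with SD_403 named. Cd3g rises with Cd3e, SD_403 has the highest Cd8a at a low Cd3e, and Zap70, Tox and Prf1 show no common course with Cd3e.

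SD_403 combined absent members with high ones. It had 0 for Trac, Cd247, Cd5, Cd6, Gzma, Gzmk and Klrb1c, 7 of the 37 genes, at a depth of 45.7 M reads. Despite that depth, its library had the fewest genes above 0 of all, 16793 against 16964 to 17828 in the others. The zeros were therefore not particular to these members. SD_403 was also the highest of the 10 mice for Cd8a, Gzmb, Skap1, Klrk1 and Klrd1. The summed level of 17 B and plasma cell genes in this mouse was 1011 CPM, against 131 to 327 CPM in the other standard diet mice and 47.8 to 185 CPM on the Longevity diet. Most of it came from the antibody genes Ighm (549 CPM), Igkc (355 CPM) and Jchain (82.7 CPM), named here after their values were seen. Markers of B cells before the plasma cell stage did not share that height in SD_403. Pax5, Fcrla and Cr2 were at 0 there, and Ms4a1 (0.460 CPM), Cd79a (4.05 CPM), Cd79b (2.71 CPM) and Blk (0.635 CPM) were at the lowest values of the standard diet. The part of these genes in the values of the T and NK cell genes was not tested. Without SD_403 the median log2 difference of the members was -0.54, with 0 past the threshold.

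Lists of related genes that do not include the 37 gave the setting. Of 40 other T cell genes listed, 36 were measured and 30 tested, and 0 changed, with a median log2 difference of -0.44. The 36 summed lowest in LD_405 (44.2 CPM) and LD_406 (53.6 CPM), and LD_515 (79.1 CPM) lay above SD_646 (77.2 CPM). Of these sums S1pr1 alone made 13.1 CPM in LD_405 and 38.3 CPM in LD_515. Ctla4, an inhibitory receptor most abundant on regulatory T cells, had the smallest p. It measured 0.635, 0.750, 0.175, 0.133 and 0.723 CPM on the standard diet and 0.0512, 0.0579, 0, 0 and 0 CPM on the Longevity diet (log2 difference -2.09, SE 0.60, adjusted p = 0.102). No standard diet mouse was below 0.133 CPM and no Longevity diet mouse above 0.0579 CPM, but the latter values are under the floor of 3 reads. S1pr1 and Satb1, both also expressed outside T cells, also had negative values, S1pr1 with a log2 difference of -0.87 (adjusted p = 0.182) and Satb1 with one of -1.31 (adjusted p = 0.247), neither past the threshold. Of 32 other NK and cytotoxic cell genes listed, 23 were measured and 12 tested. Of these 0 changed, all 12 being lower on the Longevity diet, with a median of -0.85. The 23 measured summed lowest in LD_406 (34.7 CPM) and LD_515 (35.4 CPM). The 3 with the smallest p were Itga1, an integrin of resident lymphocytes and other liver cells, at -0.78 (adjusted p = 0.140), Il18rap at -1.66 (adjusted p = 0.252) and Hcst, the signalling partner of NKG2D, at -1.55 (adjusted p = 0.264).

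Markers of some other liver cells, though not all, were also lowest in LD_406 and LD_515, and their part in the result was not tested. The 16 pan-leukocyte genes summed to 94.2 and 91.0 CPM in LD_406 and LD_515, to 184 to 247 CPM in the other Longevity diet mice and to 184 to 311 CPM on the standard diet. All 16 lay lower on the Longevity diet, 0 changed, and the median was -0.76. Ptprc, which encodes CD45, measured 14.4, 20.0, 12.8, 15.2 and 19.8 CPM on the standard diet and 3.10, 14.2, 3.60, 4.00 and 15.0 CPM on the Longevity diet (log2 difference -1.36, SE 0.42, adjusted p = 0.127). LD_405, the library with low values for long transcripts, was the lowest for Ptprc, with LD_406 and LD_515 next. Among its T cell genes Cd3e stood at 2.38 CPM and Cd8a at 2.41 CPM, in the middle of the 10 mice, while Cd28 at 0.154 CPM and Tox at 4.84 CPM were second lowest and S1pr1 and Satb1 were lowest. The 16 Kupffer cell and macrophage genes summed to 321 and 332 CPM in LD_406 and LD_515 and to 488 to 1175 CPM in the other 8 mice, with 0 changed. Sinusoidal endothelial genes, 12 in number, summed to 192 and 153 CPM in these 2 mice and to 256 to 487 CPM in the others, with 0 changed and a median of -0.72. B and plasma cell genes (17 tested, 0 changed) had a median of -1.26, and neutrophil and monocyte genes (13 tested, 1 fell, S100a8) a median of -2.13. In LD_406 and LD_515 the B and plasma cell sums were lowest, 47.8 and 83.5 CPM, against 121 CPM or more in the others. So were the neutrophil and monocyte sums, 9.89 and 10.0 CPM, against 13.4 CPM or more. S100a8 measured 24.6, 3.55, 0.826, 34.6 and 1.80 CPM on the standard diet and 0.179, 0.637, 0.202, 0.50 and 0.196 CPM on the Longevity diet, so that SD_403 and SD_646 carried the standard diet level, and its call held in 7 of 23 alternatives (adjusted p = 0.0404, up to 0.411 among the alternatives). Defining markers listed at 0 in at least 1 mouse were Cxcr2, Ly6g, Ngp, Camp, Ltf, Retnlg and Chil3 for neutrophils and monocytes, and Pax5, Fcrla, Derl3, Tnfrsf13c and Cr2 for B cells. Stellate cell and fibroblast genes (12 tested, 1 fell, Pdgfrb) had a median of -0.81, and the call of Pdgfrb (adjusted p = 0.0299) held in 16 of 23 alternatives (up to 0.244). Their lowest sum was that of LD_513, 355 CPM, against 407 CPM in LD_406 and 462 CPM in LD_515. The dendritic cell sum of LD_406, 268 CPM, was second highest of the 10 mice, and the lowest cholangiocyte sum was that of LD_405, 33.1 CPM. Not every dendritic cell gene was high in LD_406, where Clec9a (0.566 CPM) and Irf8 (4.61 CPM) were each second lowest. That sum therefore does not describe each gene of its list. In the same limma fit an unadjusted p under 0.05 was reached by 16.6% of all genes. It was reached by 3 of 30 other T cell genes, 4 of 12 other NK cell genes, 5 of 16 pan-leukocyte genes, 3 of 16 Kupffer cell genes, 8 of 12 endothelial genes, 9 of 17 B and plasma cell genes, 8 of 13 neutrophil and monocyte genes and 8 of 12 stellate cell genes, each lower on the Longevity diet.

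**Figure D5:**
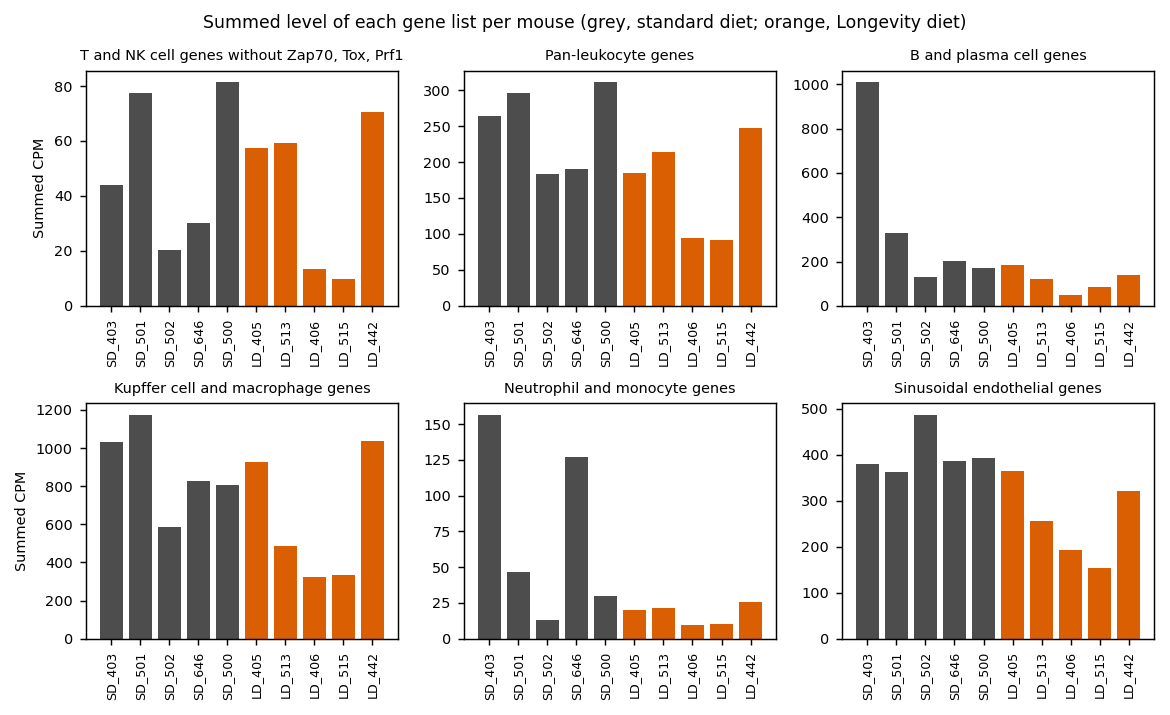
Summed CPM in each mouse (bars, grey for the standard diet and orange for the Longevity diet) of 34 T and NK cell genes without Zap70, Tox and Prf1, and of the lists for pan-leukocyte, B and plasma cell, Kupffer cell, neutrophil and endothelial genes. LD_406 and LD_515 have the lowest bars in every panel. The bar of SD_403 for B and plasma cell genes, 1011 CPM, is mostly Ighm, Igkc and Jchain, while Pax5, Fcrla and Cr2 are at 0 in that mouse.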

How the data were processed

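Poly-A selected RNA of 10 livers was sequenced. Per the submitters' processing notes, STAR and Partek were used with the mm39 genome; their versions, the quantifier, the annotation and any filter on low counts are not given in the sources used here. The deposited values are CPM (counts per 1000000 reads over the table's genes). The authors' values all carry an added 0.0001, as the values themselves show, and it was subtracted. Depth was estimated from the step between low values. Of the values under 100 reads 84.4% to 87.8% lay within 0.1 of a whole read, too few to treat them as whole counts. No test that needs whole counts was run. The alternative with voom weights took CPM multiplied by the estimated depth in place of counts.

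Limma 3.58.1 in R 4.3.3, with the trend and robust options, was fitted to log2(CPM + 0.1) of 15928 genes, those averaging 0.25 CPM or more, with diet as the only term. The fit was also run on simulated data with the same variability between mice for all genes. Those data do not cover the wider spread of the members. P-values were adjusted by Benjamini-Hochberg over all genes tested. Ratios within a mouse were compared by an exact 2-sided permutation test over the 252 assignments of 10 mice, and correlations by 100000 resamples. The members and all gene lists were chosen with earlier results of these data known. Named were all members, up to 3 genes with the smallest p from each other list, Ptprc, and the ligands Cxcl16, Cxcl9, Cxcl10, Il15 and Il7. Genes that overlap a member are named where their reads could be mixed.

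Each group has 5 mice, each listed as a separate animal; cage, litter and sequencing batch are not given in the labels. Whether libraries were stranded is not stated per sample. Coordinates are those deposited (mm39), and lengths are of the longest GENCODE M21 transcript. Promoter windows come from RefSeq on GRCm38.p6. Alternatives covered the number added before the logarithm, the filter, scaling, weights, a covariate and omitted mice. Removal of each library's slope on transcript length and GC content was added after the data were seen.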

Additional observations from a re-analysis of the deposited data

Results flagged for a closer look

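Within-diet values of the members, on log2(CPM + 0.1), and the log2 ratios were searched for a mouse far from the other 4. The measure was the gap of that mouse to its neighbour as a share of the whole range (limit 0.71). Member values are printed below as CPM, without the logarithm, and a gap to a value at 0 depends on the 0.1 CPM added. Of 84 groups examined 6 passed, and chance alone flags about 1 in 20. SD_502 stood low for Klrk1, the gene of NKG2D, at 0.375 CPM against 2.03 to 2.47 CPM in the other standard diet mice. The same mouse stood low for Ncr1, the gene of NKp46, at 0 CPM against 0.416 to 0.889 CPM, and therefore for the ratio of Ncr1 to Ptprc, at -7.01 log2 units against -5.04 to -4.35. SD_502 was also the library with the highest values for long transcripts (median deviation 0.49 log2 units for those of at least 5095 bases), and its part in these values was not tested. SD_403 stood high for Tbx21 at 0.744 CPM, in a group that otherwise spanned 0.548 to 0.598 CPM. LD_405 stood low for Tox at 4.84 CPM against 10.5 to 13.3 CPM, in the library whose long transcripts were low. LD_515 stood high for the ratio of Ncr1 to Cd3e, at 0.34 log2 units against -3.15 to -2.16, with 0.269 CPM of Ncr1 and 0.192 CPM of Cd3e, which are few reads for either gene.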

How the results depend on the processing

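No paired analysis was possible because the diets share no mouse number and the replicate numbers were given in accession order. The count of T and NK cell genes past the threshold was 0 under all settings run except weights per library, where it was 1 (Prf1). Over all genes the count was 265, and it was 769 with weights per library, 162 with voom weights, 102 with the leading digit of the mouse number as a covariate, 18 without LD_406 and LD_515, and 471 with the slopes on length and GC removed; leaving out 1 mouse gave 100 to 351, the lowest without LD_406. The causes were not tested. The median log2 difference of the members ranged from -0.70 to -0.07 when 1 mouse was left out. It was 0.44 without LD_406 and LD_515, where 31 of the 37 members were above 0.

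Signs of members reversed as follows, none of them past the threshold in either fit. With 0.5 CPM added, Gzmk to Cd3e was 0.0797, Cd247 -0.0740 and Trac -0.0119. With 1 CPM, Cd247 was -0.0773, Trac -0.0196 and Nkg7 0.0514. Library weights gave Cd247 -0.27, Trac -0.75, Eomes -0.23 and Ccl5 -0.27. The covariate gave Cd247 -0.11, Cd6 0.31, Gzma 0.0520, Eomes -0.45 and Ccl5 -0.32. Quantile scaling gave Cd8a 0.13, Lat 0.25, Nkg7 0.22 and Gzma 0.13, and median-of-ratios gave Gzma 0.0272. Voom gave Lat 0.0527, Cd5 0.54, Cd6 0.14, Gzma 0.44 and Eomes -0.11. Removal of the slopes gave Trac -0.0406 and Eomes -0.0358. Without LD_406 and LD_515, Cd3d was 0.44, Cd3e 0.73, Cd3g 0.64, Trbc1 0.44, Trbc2 0.25, Cd8a 1.12, Cd8b1 0.47, Lck 0.49, Lat 0.65, Skap1 0.47, Cd2 0.10, Cd5 0.68, Cd6 1.00, Cd28 0.17, Nkg7 0.92, Gzma 1.09, Gzmb 0.63, Gzmk 0.43, Tbx21 0.10, Cxcr6 0.0747, Cxcr3 0.0510, Il2rb 0.0537 and Ms4a4b 0.32.

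With 1 mouse left out, Ncr1 to Cd3e ran from -0.77 to 0.31, Gzmk to Cd3e from -0.28 to 0.29, Cd3e from -0.73 to 0.18, Cd247 from -0.29 to 0.59, Trac from -0.64 to 0.61, Cd8a from -0.64 to 0.40, Lat from -0.66 to 0.45, Cd5 from -0.76 to 0.43, Cd6 from -0.84 to 0.35, Cd28 from -0.82 to 0.0423, Nkg7 from -0.69 to 0.45, Gzma from -0.71 to 0.59, Gzmb from -0.76 to 0.18, Gzmk from -0.88 to 0.0155, Eomes from -0.29 to 0.33 and Ccl5 from -0.22 to 0.77. The ratio without an added number was computed only for Cd8a to Cd4 and Cd3e to Ptprc, the pairs with no value at 0. Depth limited the members below 1 CPM (14 of 37), and 13 members were at 0 in at least 1 mouse.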

Other observations

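Cell types that the T and NK cell genes do not describe gave these values. Of 10 dendritic cell genes tested with limma 0 changed and 1 had an unadjusted p under 0.05, with a median log2 difference of -0.80, and their summed level was 96.0 to 263 CPM on the standard diet and 130 to 338 CPM on the Longevity diet. Clec9a, a receptor of the dendritic cells that present antigen to CD8 T cells, measured 4.75, 3.30, 1.25, 2.72 and 1.31 CPM on the standard diet and 1.08, 2.84, 0.566, 0.50 and 2.16 CPM on the Longevity diet (log2 difference -0.97, SE 0.52, adjusted p = 0.376). Of 12 proliferation genes 0 changed and 0 had an unadjusted p under 0.05, with a median of -0.39, and Mki67, which marks dividing cells, measured 4.49, 7.16, 2.93, 1.17 and 3.24 CPM on the standard diet and 2.00, 2.37, 0.445, 2.08 and 1.73 CPM on the Longevity diet (log2 difference -1.05, SE 0.50, adjusted p = 0.314). SD_501 had the highest Mki67 as it had the highest Cd3d and Cd3g. Cholangiocyte genes (6 tested, 0 changed, 1 with an unadjusted p under 0.05) had a median of 0.01. Of 10 hepatocyte genes 1 changed, Cps1, an enzyme of the urea cycle, which fell (log2 difference -0.98, SE 0.22, adjusted p = 0.0383), and the median was -0.01. An unadjusted p under 0.05 was reached by 5 of the 10, of which 2 were higher and 3 lower on the Longevity diet. The 10 genes summed to 101831 to 150284 CPM on the standard diet and 150417 to 203068 CPM on the Longevity diet, without overlap. Alb, highest in LD_515, had a log2 difference of 0.68 (adjusted p = 0.0868). The values of a library share a fixed total, and the part of this in the member values was not tested. The call of Cps1 held in 13 of 23 alternatives and was lost in 10 (adjusted p up to 0.179).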
